A study of Mus musculus with 4 samples.

Results

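The genes described here encode the nuclear pore complex and the soluble machinery of nuclear transport. They were taken by symbol from both deposited tables of a study of RNA polymerase II (Pol II) in mouse B16F10 melanoma cells. The rule covered nucleoporins, importins and karyopherins, exportins, the Ran cycle, and factors that bind the messenger RNA cap or export messenger RNA, and left out Sec13, which also serves vesicle trafficking. It found 32 genes among the 3117 genes in either table, and all 32 stood in both tables. The knockout cells were Carm1 KO B16F10 cells, labelled as lacking the coactivator-associated arginine methyltransferase, and the controls were parental B16F10 cells, labelled WT; B16F10 is an established melanoma line. Both were profiled by mammalian native elongating transcript sequencing (mNET-seq), which digests chromatin with micrococcal nuclease, immunoprecipitates Pol II and sequences the short RNA it holds. Each condition had 1 library made with an antibody to Pol II phosphorylated at serine 2 of its carboxy-terminal domain (Ser2P), a mark of elongating polymerase, and 1 made with the 8WG16 antibody to that domain. For each library 3 sets of cells were handled apart and pooled, so there were no replicates and no value below could be set against a spread between samples. How the knockout was made, and whether it is 1 clone, is not given in the sources used here.

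The tables give each gene a Ser2P ratio in Carm1 KO and in control cells, once at the transcription start site (TSS) and once at the transcription end site (TES). What the Ser2P signal was divided by is not given in the sources used here, and read depth is unknown, so a change may lie in the numerator or in the divisor. Changes are given as log2(Carm1 KO / control), and a gene was counted as higher or lower when it passed 1.5-fold, or 0.58 on the log2 scale. These counts describe 1 library per condition and no test stands behind them. The knockout was not checked from its own gene, since Carm1 was not analysed here. The melanocyte markers Tyr, Tyrp1, Pmel, Mlana and Sox10 were listed at the TSS, which is 5 of the 7 markers looked up, and 3 of the 7 were listed at the TES. Of 5 markers of other cell types, 0 were listed at either end.

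The nuclear pore is a ring-shaped channel through the nuclear envelope. Scaffold nucleoporins of the inner ring hold it in the membrane, and nucleoporins rich in phenylalanine-glycine (FG) repeats fill the channel. The pore also has cytoplasmic filaments and a nuclear basket. Import and export receptors of the karyopherin family carry cargo through the FG mesh, and the GTPase Ran, bound to GTP in the nucleus and to GDP in the cytoplasm, sets the direction of that traffic. Messenger RNA leaves by another route, through Nxf1, after the THO complex and the cap-binding complex have packaged the transcript during transcription.

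At the TSS most of these genes had a higher Ser2P ratio in Carm1 KO cells. Of the 31 genes above 0 in both conditions, 26 were at least 1.5-fold higher, against 71.2% of all genes compared, and 1 was at least 1.5-fold lower, against 5.60% of all genes. The median TSS ratio of the 32 genes was 0.168 in Carm1 KO and 0.0733 in control cells, beside 0.166 and 0.0809 over all genes in the table. Their median log2 change was 1.68, and that of all genes was 1.17. The scale between the libraries is not given, so the changes were also read relative to the median of all genes. On that scale 13 of the genes were at least 1.5-fold higher and 5 lower at the TSS, where 28.6% and 28.8% of all genes were.

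At the TES the genes divided. By the same threshold 17 of 32 were higher in Carm1 KO cells, against 66.7% of all genes, and 6 were lower, against 7.13% of all genes. A ratio lower by any size was found in 10 of the 32, and in 15.7% of all genes. The median TES ratio of the group was 3.55 in Carm1 KO and 3.11 in control cells, where all genes had 2.99 and 1.71. The median log2 change was 0.66 against 0.85 for all genes, and relative to the all-gene median it was -0.19. On that scale 1 gene was at least 1.5-fold higher and 13 were lower, against 11.6% and 22.0% of all genes. Counts by class below stand against the same shares of all genes.

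**Figure D1:**
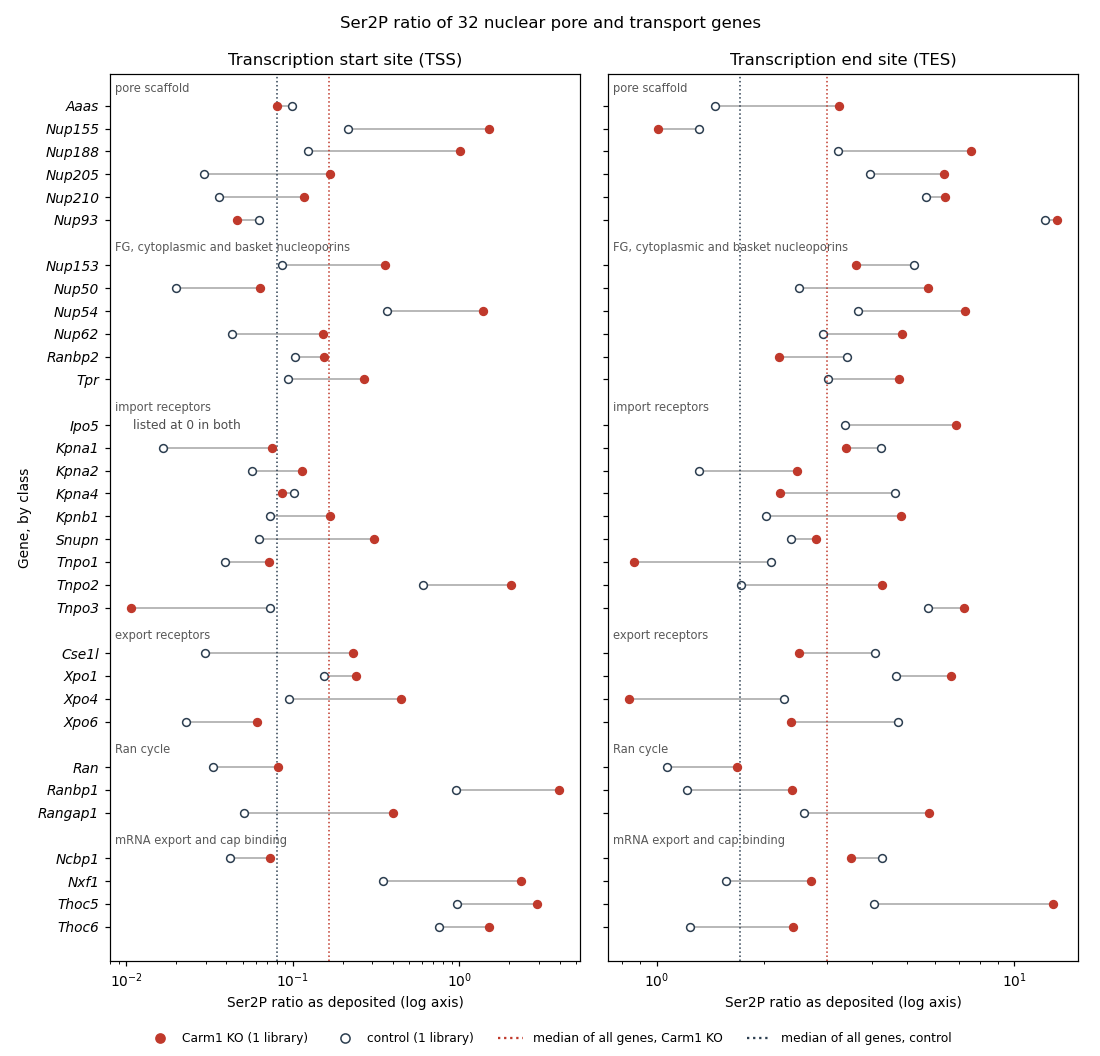
Ser2P ratio at the TSS (left) and TES (right) of each of the 32 genes on log axes, with filled points for Carm1 KO and open points for control cells, 1 library each, and dotted lines at the medians of all genes. At the TSS the Carm1 KO point lies to the right for 27 of 31 genes, and at the TES it lies to the left for 10 of 32, among them Xpo4, Xpo6 and Cse1l.

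The promoter windows of the genes with the 2 highest and the 2 lowest TSS changes, among those with a RefSeq window, are shown, with 5 short motifs in capitals. They run from 250 bases before to 50 after the RefSeq start (GRCm38.p6) on the gene's own strand, 5′ to 3′, and capitals mark any of them on either strand: the TATA box TATAAA, the CCAAT box, the GC box GGGCGG, the ETS core CCGGAA and the NRF1 core GCATGCG. The width of the authors' TSS window is not given in the sources used here. Nup188 (chr2:30286166-30286465, plus strand) and Rangap1 (chr15:81729870-81730169, minus strand) had the largest TSS changes, 3.02 and 2.98, and the Rangap1 window lies 15611 bases from the GENCODE start. Tnpo3 (chr6:29609800-29610099, minus strand) and Nup93 (chr8:94214314-94214613, plus strand) had the lowest, -2.77 and -0.43.
Nup188: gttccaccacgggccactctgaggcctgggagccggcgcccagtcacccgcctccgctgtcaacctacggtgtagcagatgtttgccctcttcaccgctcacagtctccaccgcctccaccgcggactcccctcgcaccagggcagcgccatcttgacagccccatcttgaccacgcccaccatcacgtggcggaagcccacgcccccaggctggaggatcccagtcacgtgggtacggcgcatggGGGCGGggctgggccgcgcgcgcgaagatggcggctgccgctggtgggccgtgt
Rangap1: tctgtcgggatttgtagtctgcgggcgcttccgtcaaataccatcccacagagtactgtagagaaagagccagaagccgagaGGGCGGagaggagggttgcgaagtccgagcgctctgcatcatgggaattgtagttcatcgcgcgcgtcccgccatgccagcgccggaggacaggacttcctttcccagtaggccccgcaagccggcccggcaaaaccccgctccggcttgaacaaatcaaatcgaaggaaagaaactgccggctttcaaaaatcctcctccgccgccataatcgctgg
Tnpo3: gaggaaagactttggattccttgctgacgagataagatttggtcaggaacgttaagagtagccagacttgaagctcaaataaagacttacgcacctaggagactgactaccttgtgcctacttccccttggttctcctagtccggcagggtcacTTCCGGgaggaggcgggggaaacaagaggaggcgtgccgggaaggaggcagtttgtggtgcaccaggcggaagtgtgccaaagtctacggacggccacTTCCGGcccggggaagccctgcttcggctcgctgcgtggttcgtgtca
Nup93: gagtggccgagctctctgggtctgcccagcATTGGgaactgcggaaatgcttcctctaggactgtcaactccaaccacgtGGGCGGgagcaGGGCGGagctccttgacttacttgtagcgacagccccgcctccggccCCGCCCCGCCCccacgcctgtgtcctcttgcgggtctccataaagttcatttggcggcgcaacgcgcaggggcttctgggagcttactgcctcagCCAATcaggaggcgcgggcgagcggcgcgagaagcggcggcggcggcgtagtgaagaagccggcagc

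Of these windows, those of Nup188 and Rangap1 held 1 GC box each, that of Tnpo3 held 2 ETS cores and no GC box, and that of Nup93 held 4 GC boxes, a pair of which overlap, and 2 CCAAT boxes. RefSeq windows were matched for 29 of the 32 genes. Among the 29, the GC box was found in 23, or 79.3%, against 69.4% of 2529 promoters of genes in the tables and 36.0% of all 27025 promoters. CCAAT was found in 16, or 55.2%, against 41.8% and 37.9%. The ETS core was found in 8, or 27.6%, against 38.8% and 15.2%, the NRF1 core in 4, or 13.8%, against 8.50% and 3.64%, and TATAAA in Ncbp1 and Ranbp2, or 6.90%, against 6.25% and 14.2%. The NRF1 core was held by Ran, Ranbp1, Nup50 and Nup62. A match describes letters in the window and says nothing of what binds there.

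Among the 6 scaffold genes, Nup188 and Nup155 of the inner ring had the largest TSS changes of the class. Nup188 lies on the plus strand of chromosome 2 from 30286397 to 30344266 (GRCm38). Its TSS ratio was 1.01 in Carm1 KO and 0.124 in control cells, a log2 change of 3.02 and the highest of the 31 genes. That Carm1 KO ratio was shared exactly with 2 other genes at the TSS, and the control TES ratio of Nup188 with 2 others at the TES. Nup188 therefore drops out at both ends when shared values are left out. Nup155, on chromosome 15, had 1.498 in Carm1 KO and 0.213 in control cells (2.81). At the TES these inner ring genes differed: Nup188 had 7.58 in Carm1 KO and 3.21 in control cells, and Nup155 had 1.01 and 1.31, a log2 change of -0.38. Nup155 thus had the lower TES ratio in Carm1 KO cells together with one of the higher TSS ratios. Nup205, the close relative of Nup188, had TSS ratios of 0.168 in Carm1 KO and 0.0293 in control cells and TES ratios of 6.38 and 3.94. It was higher at both ends, by 2.52 and 0.69.

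The other 3 scaffold genes, like Nup155, stayed within 1.5-fold at the TSS, the TES or both. Nup93, which links the inner ring to the channel, had the highest TES ratio of the whole group, 13.1 in Carm1 KO and 12.2 in control cells, and TSS ratios of 0.0463 and 0.0623 (log2 change -0.43). Nup210, a membrane glycoprotein of the pore, had TES ratios of 6.41 in Carm1 KO and 5.65 in control cells, a change of 0.18, beside 0.117 and 0.0359 at the TSS (1.70). Aaas, which encodes aladin, a nucleoporin anchored at the pore membrane, had the lower ratio at its start. Its TSS ratio was 0.0801 in Carm1 KO and 0.0989 in control cells (-0.30), and its TES ratio was 3.24 and 1.46 (1.15). Over the class 4 of 6 genes were at least 1.5-fold higher and 0 lower at the TSS, and 3 were higher and 0 lower at the TES.

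The 6 genes for FG, cytoplasmic and basket nucleoporins were all above 0 in log2 change at the TSS, 5 of them by at least 1.5-fold. Nup54 and Nup62 form the central channel. Nup54 had the highest TSS ratios of the class, 1.39 in Carm1 KO and 0.366 in control cells, and Nup62 had 0.152 and 0.0432. At the TES both were higher as well, Nup54 at 7.29 in Carm1 KO and 3.65 in control cells and Nup62 at 4.85 and 2.92. The genes of the nuclear basket were less alike. Nup50 had TES ratios of 5.73 in Carm1 KO and 2.51 in control cells, and Tpr had 4.76 and 3.01, whereas Nup153 had 3.61 and 5.25 (log2 change -0.54). The Nup153 TSS ratio was 0.358 in Carm1 KO and 0.0866 in control cells, the largest TSS change of the class at 2.05. Tpr had 0.268 and 0.0935 at the TSS (1.52) and Nup50 had 0.0632 and 0.0198 (1.68). Ranbp2 (chr10:58446920-58494356, plus strand), the giant protein of the cytoplasmic filaments, had TES ratios of 2.20 in Carm1 KO and 3.41 in control cells, 1.55-fold lower, and TSS ratios of 0.153 and 0.104 (0.57). It was the class's only gene past the threshold on the low side. GENCODE names 12 Ranbp2 pseudogenes and 1 of Kpna2, and how the authors' counting treated reads from such copies is not given, which leaves those values less certain.

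All 3 genes of the Ran cycle were higher at both ends. Ran, the GTPase itself, had TSS ratios of 0.0818 in Carm1 KO and 0.0333 in control cells and TES ratios of 1.68 and 1.07, the lowest control TES ratio of the 32 genes. Rangap1, which activates GTP hydrolysis by Ran at the cytoplasmic face, had 0.401 in Carm1 KO and 0.0509 in control cells at the TSS (log2 change 2.98), with 5.79 and 2.58 at the TES (1.17). Ranbp1, which helps Rangap1 free Ran from receptors, stood apart in level. Its TSS ratio was 3.95 in Carm1 KO and 0.955 in control cells, the highest Carm1 KO value of the group, and its TES ratio was 2.39 and 1.21. Ranbp1 therefore had a higher Ser2P ratio at its start than at its end in Carm1 KO cells. Rcc1, the nucleotide exchange factor of Ran that the naming rule also covered, was listed under that symbol in neither table.

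The 9 import receptor and adaptor genes included the lowest TSS change of the group, that of Tnpo3. Tnpo3 (chr6:29540827-29609887, minus strand) encodes the receptor for serine-arginine-rich splicing factors. At the TSS it was the single gene of the group past the threshold on the low side. Its TSS ratio was 0.0107 in Carm1 KO and 0.0732 in control cells. The mean of its TSS ratios lay among the lowest 25% of all genes. With those left out, 23 genes of the group remained at the TSS and 0 were lower. The count of genes at least 1.5-fold higher at the TSS also fell, from 26 to 20. At the TES Tnpo3 had 7.21 in Carm1 KO and 5.73 in control cells (0.33). Its relatives differed from it and from each other. Tnpo2 had 2.04 in Carm1 KO and 0.609 in control cells at the TSS, with 4.26 and 1.72 at the TES, a log2 change of 1.31 and the largest of the class there. Tnpo1 (chr13:98839019-98926384, minus strand), the receptor for proteins with a proline-tyrosine signal, had TES ratios of 0.865 in Carm1 KO and 2.08 in control cells, 2.41-fold lower. At the TSS it had 0.0722 and 0.0394, 1.83-fold higher.

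Kpnb1, importin beta, the receptor of the classical import route, was higher at both ends, with 0.168 in Carm1 KO and 0.0734 in control cells at the TSS, and 4.83 and 2.03 for these at the TES (log2 changes 1.19 and 1.25). Its cargo adaptors of the importin alpha family did not follow one pattern. Kpna2 had TES ratios of 2.47 in Carm1 KO and 1.31 in control cells (0.91) and TSS ratios of 0.114 and 0.0565 (1.01). Kpna4 (chr3:69067149-69127113, minus strand) had TES ratios of 2.21 in Carm1 KO and 4.65 in control cells, 2.11-fold lower, and a TSS ratio of 0.0866 and 0.101 (-0.23). Kpna4 was lower by this threshold at the TES and between the thresholds at the TSS. Kpna1 had 3.39 in Carm1 KO and 4.23 in control cells at the TES (-0.32) but 0.0746 and 0.0166 at the TSS, 4.50-fold higher. Of the other importers, Ipo5, a receptor for ribosomal proteins and histones, was listed at 0 at the TSS in both conditions, so no TSS change was computed. Its TES ratio was 6.87 in Carm1 KO and 3.36 in control cells (1.03). Snupn, snurportin, brings capped spliceosomal particles into the nucleus. It had 0.306 in Carm1 KO and 0.0623 in control cells at the TSS (2.30, the largest of the class), with 2.79 and 2.37 at the TES (0.23). The control TSS ratio of Snupn was shared exactly with 5 other genes, Nup93 among them. Over the class 6 of 8 genes compared were at least 1.5-fold higher and 1 lower at the TSS, and at the TES 4 of 9 were higher and 2 lower.

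The 4 export receptor genes were all at least 1.5-fold higher at the TSS, and 3 of the 4 were at least 1.5-fold lower at the TES. Over all genes 71.2% were higher at the TSS and 7.13% lower at the TES, but the lower share at the TES was 19.8% among long genes, where these 4 lie. By 10 length groups it was 31.5% in the longest, which holds Xpo4 and Xpo6, and 8.05% in the group that holds Cse1l and Xpo1. Xpo4, which exports the translation factor eIF5A, had the lowest change of the group at the TES, with a ratio of 0.839 in Carm1 KO and 2.26 in control cells, 2.70-fold lower (log2 change -1.43). Its TSS ratio was 0.447 in Carm1 KO and 0.0945 in control cells (2.24). By GRCm38 coordinates it lies at chr14:57577521-57665430 on the minus strand. Xpo6, the exporter of actin, had TES ratios of 2.37 in Carm1 KO and 4.73 in control cells (log2 change -0.998) and TSS ratios of 0.0610 and 0.0227 (1.42). Cse1l, which returns importin alpha to the cytoplasm, had TES ratios of 2.496 in Carm1 KO and 4.08 in control cells (-0.71) and TSS ratios of 0.231 and 0.0298 (2.95). In the knockout, then, each of these genes had a higher ratio at its start and a lower one at its end. Xpo6 lies at chr7:126101715-126200501 on the minus strand and Cse1l at chr2:166906040-166946389 on the plus strand. Xpo1, the general exporter of proteins with a leucine-rich signal, was the exception at the TES, with 6.65 in Carm1 KO and 4.65 in control cells (0.51), and had 0.241 and 0.155 at the TSS (0.64). The control TES ratios of Xpo4, Xpo6 and Cse1l are each shared exactly with at least 1 other gene. With genes of shared values left out at the TES, Xpo1 alone remained in the class there, and Kpna4 was the only one of the 32 genes still lower by 1.5-fold.

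**Figure D2:**
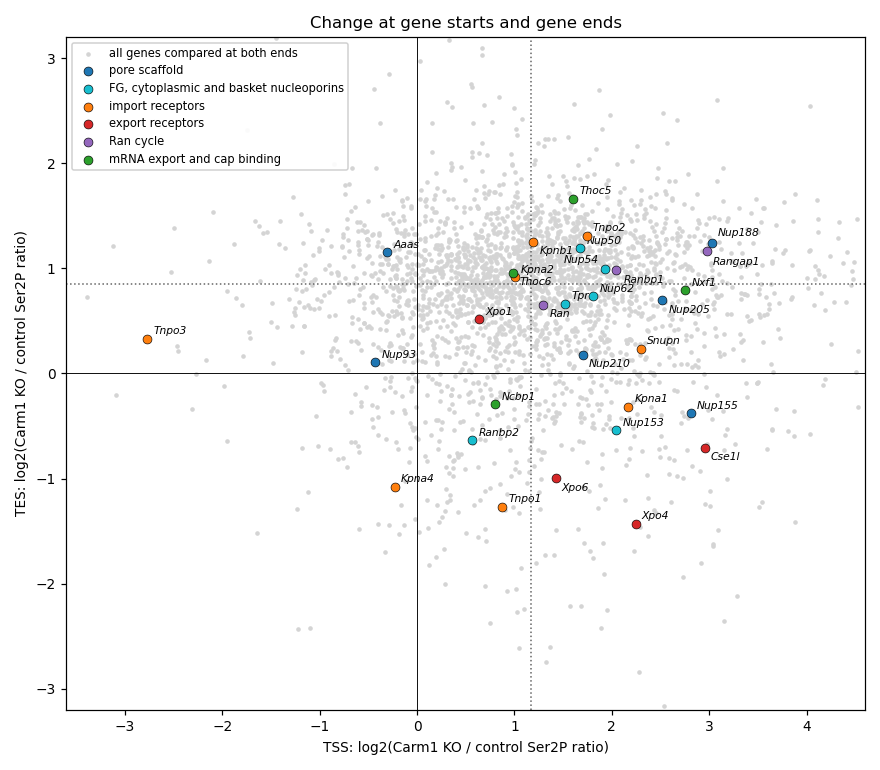
Log2 change of the Ser2P ratio (Carm1 KO over control) at the TSS on the horizontal axis and at the TES on the vertical axis, for 31 of the genes in colour by class and for all genes in grey, with dotted lines at the medians of all genes (1.17 and 0.85). Xpo4, Xpo6, Cse1l and Tnpo1 are among the genes at the lower right, above 0 at the TSS and below 0 at the TES, Tnpo3 lies alone at the far left, and 18 genes outside the axes are not drawn.

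The 4 genes for messenger RNA export and cap binding had the highest TSS ratios of any class, with medians of 1.93 in Carm1 KO and 0.555 in control cells. Thoc5, a subunit of the THO complex, had 2.94 in Carm1 KO and 0.969 in control cells at the TSS, with 12.8 and 4.04 at the TES. Its TES change of 1.66 was the largest of the 32 genes and the only one still 1.5-fold above the median of all genes. Thoc6, of the same complex, had 1.503 in Carm1 KO and 0.759 in control cells at the TSS, with 2.40 and 1.24 at the TES (log2 changes 0.99 and 0.96). Nxf1, the main receptor for messenger RNA, had 2.36 in Carm1 KO and 0.3501 in control cells at the TSS (2.75), with 2.70 and 1.56 at the TES (0.79). Ncbp1, the large cap-binding subunit, differed from these in level and direction. It had 0.0732 in Carm1 KO and 0.0420 in control cells at the TSS (0.80), with 3.49 and 4.27 at the TES (-0.29). By the threshold all 4 genes were higher at the TSS, and 3 were higher and 0 lower at the TES.

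Ser2P normally builds up along a gene, and the TES ratio exceeded the TSS ratio in control cells for all 31 genes that could be compared, where 2.99% of all genes had the reverse order. In Carm1 KO cells the order was reversed in 2 of the 31, Nup155 and Ranbp1, against 6.16% of all genes. The Nup155 TES ratio in Carm1 KO cells, 1.01, was shared exactly with 3 other genes at the TES. For Nup155 the TES ratio was 0.672 times that at the TSS in Carm1 KO and 6.13 times in control cells, and that of Ranbp1 was 0.606 and 1.27 times. In the median gene of the group the TES ratio was 17.7 times that at the TSS in Carm1 KO and 32.9 times in control cells, beside 15.7 and 19.5 over all 2775 genes compared at both ends. On the log2 scale these medians of the group were 4.15 in Carm1 KO and 5.04 in control cells, and over the 8 genes with no shared value at either end they were 1.59 and 2.11. The gradient was flatter in Carm1 KO cells for 26 of the 31, and for 63.4% of all genes. The genes of this group are long, as described below, and their gradients were not compared with those of genes of like length. The export receptor genes had a median gradient of 17.3-fold in Carm1 KO and 64.2-fold in control cells, and Xpo4 and Cse1l differed most of the 31 genes. The Xpo4 gradient was 1.88-fold in Carm1 KO and 23.9-fold in control cells, and that of Cse1l was 10.8 and 137. Nxf1 came close to level, at 1.15-fold in Carm1 KO and 4.47-fold in control cells. The gradient was steeper in Carm1 KO cells for Tnpo3, Aaas, Nup93, Kpnb1 and Thoc5. For Tnpo3 it was 672-fold in Carm1 KO and 78.3-fold in control cells, and this rests on its low TSS ratio in Carm1 KO cells. TSS and TES values of a condition come from the same libraries, so the changes at both ends are not independent measurements.

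**Figure D3:**
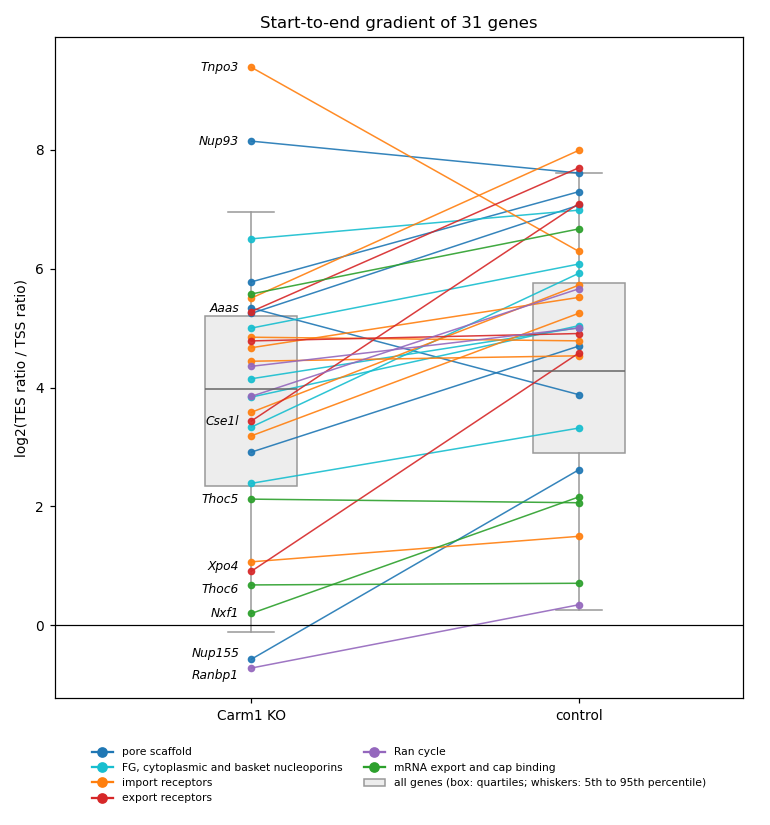
Log2 of the TES ratio over the TSS ratio of 31 genes in Carm1 KO (left) and control cells (right), with a line for each gene coloured by class and boxes for all genes. Most lines lie lower in Carm1 KO cells, Nup155 and Ranbp1 fall below 0 there, and Tnpo3 runs the other way.

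The genes of this group are long, with a median of 40816.5 bp against 18246 bp for all genes compared at the TES, and in these tables the TES ratio varies with gene length. When all genes are put in 10 groups of equal number by length, the 3 longest groups, from 33444 bp, hold 20 of the 32 genes. In those the median TES change of the 20 genes was -0.09, with 10 below 0 and 6 lower by 1.5-fold, and the 894 genes of all kinds in the same groups had a median of 0.26, with 39.1% below 0 and 19.8% lower by 1.5-fold. The 12 shorter genes had a median TES change of 0.97 with 0 below 0, beside 0.96 and 5.71% over all genes of that length. All 6 genes that were lower by 1.5-fold at the TES were thus among the longer genes. After the median of each length group was subtracted, 10 of 32 genes were at least 1.5-fold lower and 2 higher at the TES, against 16.3% and 13.1% of all genes. Xpo4 stood at -1.34 on that scale, Cse1l at -1.38, Kpna4 at -1.30, Ranbp2 at -1.31, Tnpo1 at -1.18 and Xpo6 at -0.91. On the other side Nup188, at 57.9 kb, stood at 1.01 and Thoc5, at 33.5 kb, at 0.99.

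Across the 32 genes, Spearman's rank correlation between length and TES change was -0.59, and it was -0.34 over 2978 genes. The rank correlation between length and the TES ratio itself was 0.11 in Carm1 KO and 0.68 in control cells for the 32 genes, and 0.58 and 0.79 over all genes. These are descriptions across genes of the same libraries, which share depth and scale. At the TSS the change bore little relation to length, with a rank correlation of -0.02 over the 31 genes and 0.05 over all genes. Lengths are those of the GENCODE gene models. For Rangap1 the RefSeq start lies 15611 bases inside the GENCODE start, so its length, and its distance to neighbouring genes, depend on the annotation. Which of these starts the Rangap1 TSS ratio was taken at was not worked out.

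**Figure D4:**
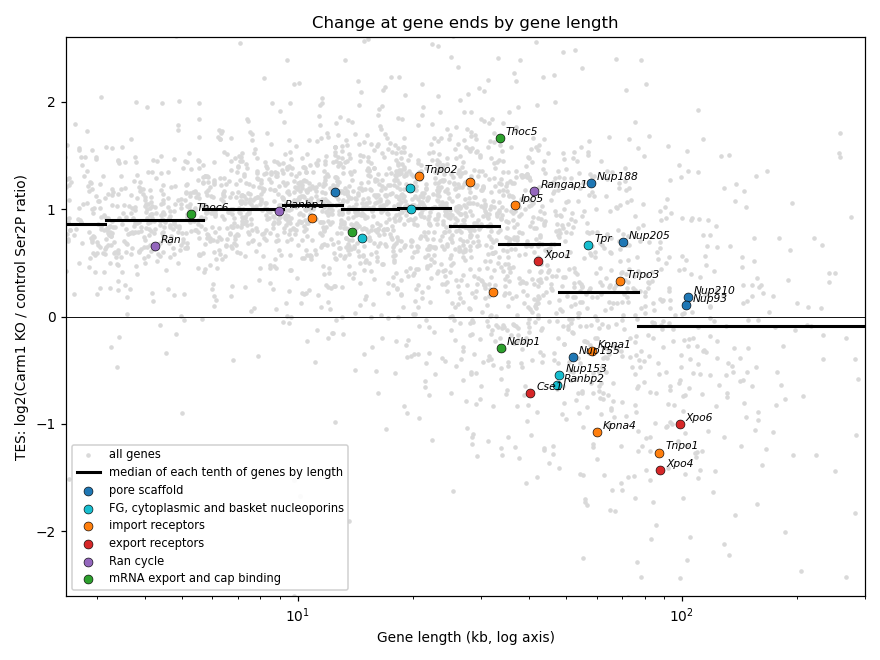
Log2 change of the TES ratio (Carm1 KO over control) against gene length on a log axis, with the 32 genes in colour by class, all genes in grey and bars at the median of each of 10 length groups; 261 genes outside the axes are not drawn. The 12 shorter genes of the group lie above 0, and the longer ones spread from Thoc5 at 1.66 down to Xpo4 at -1.43.

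Neighbouring genes lie close to several starts, and the strand setting of the authors' counting is not given. By GENCODE another gene starts within 1 kb of the start of 8 of the 32 genes, or 25%, against 38.0% of annotated genes in the tables. The start of Trmt2a lies 53 bp from that of Ranbp1 and the start of Hcfc1r1 286 bp from that of Thoc6. Dolk starts 63 bp from Nup188 and Tstd2 81 bp from Ncbp1. Genes with such a neighbour included high TSS ratios, as at Ranbp1, and low ones, as at Ncbp1 and Aaas, and Thoc5, Tnpo2 and Nxf1 had high ratios with no other start within 1 kb. The annotated end of another gene lay within 1 kb of the start in 0 of the 32, against 9.36% of annotated genes. At the other end, the start of Tmem223 lies 74 bp from the end of Nxf1, and the ends of Bicdl2 and Thoc6 lie 7 bp apart. The part of such neighbours in the values was not tested.

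Factors that work beside these genes were read from a list of 26 other messenger RNA export and 3′ end factors and a list of 29 genes of the nuclear envelope, the lamina and related factors. Of the first, 13 were listed. At the TSS 9 of them were at least 1.5-fold higher and 0 lower (median log2 change 0.97), and at the TES 9 were higher and 1 lower (0.83), shares near those of all genes. Sarnp, a partner of the TREX export complex, was the lower one, with 2.24 in Carm1 KO and 5.64 in control cells at the TES (-1.33). At the TSS Sarnp was higher, with 2.62 in Carm1 KO and 0.479 in control cells (2.45). Nudt21, a subunit of the cleavage factor that helps set the poly(A) site, had the highest TSS change of the list (3.03) and a TES change of -0.43. Pcid2 and Eny2 of the TREX-2 complex had the lowest TSS changes, -0.01 and 0.31, and Akap8l and Srrt, a partner of the cap-binding complex, the highest TES changes, 1.53 and 1.31. Of the second list 9 were listed, with 6 higher and 2 lower at the TSS, against 71.2% and 5.60% of all genes, and 4 higher and 1 lower at the TES, against 66.7% and 7.13% (median log2 changes 0.88 and 0.46). Lemd3, an inner nuclear membrane gene, was the lower one at the TES, with 2.19 in Carm1 KO and 7.27 in control cells, whereas Lmna, the lamin A/C gene, had 6.44 and 2.28. Tor1aip1 and Tor1aip2, partners of the nuclear envelope ATPase torsin, were lower at the TSS, by log2 changes of -0.96 and -0.94, and Lmnb1 and Tmpo, which encode lamin B1 and a lamina-associated protein, had the highest TSS changes, 1.83 and 1.82. Many of the ratios recur: a ratio shared exactly with another gene was found for 20 of the 32 transport genes at the TSS, beside 2009 of 3112 genes in that table, and for 16 at the TES, beside 1129 of 3030. Kpnb1 and Nup205 shared a TSS ratio in Carm1 KO cells, 0.168, with 28 genes in all at that value.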

How the data were processed

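The data were 4 mNET-seq libraries of B16F10 cells, 1 each for Ser2P and Pol II in Carm1 KO and control cells, read from 2 deposited tables. The deposited values are a linear ratio, which the authors call a Ser2 fraction per the file headers; they exceed 1, and the sources used here do not state the divisor, windows, scaling or strand. The columns were assigned to Carm1 KO and control by their names. The deposited difference in the other column equals Carm1 KO minus control, within 1e-09, and was not used. Reads went through cutadapt 1.18 and TopHat2 2.1.1, with both mm10 and GRCm38 given as builds, per the submitters' processing notes. No counts are given, so depth and counting error are unknown.

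Genes were chosen by symbol and sorted into 6 classes; the genes, the lists and the named-gene rule were chosen with earlier results of these data known. The rule names every gene of the group and gives values for those lower by 1.5-fold, the extremes of each class, those at 0 or with opposite signs, and the core of the Ran cycle. Some genes of the other lists are not reported here by name. Genes at 0 were left out of changes and no pseudocount was used, so 2859 genes were compared at the TSS and 3016 at the TES. With 1 library per condition no test was run and no p-value is given. Length and neighbours came from GENCODE M21 (GRCm38), where 3077 of 3117 symbols matched once case was ignored, and promoters from RefSeq. Fold recovery was tested on simulated data. Analyses used Python 3.11.15, pandas 2.3.3, NumPy 2.4.6, SciPy 1.17.1 and Matplotlib 3.10.9. The alternatives were a 2-fold threshold, centring on all genes or on the length group, a pseudocount (0.01 at the TSS, 0.1 at the TES), leaving out the lowest 25% of ratios or shared values, a narrower symbol rule, and genes above 0 at both ends.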

Additional observations from a re-analysis of the deposited data

How the results depend on the processing

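Of 120 values recomputed under an alternative that could change them, 75 kept their direction and stayed within 1.5-fold, or 0.58 on the log2 scale for medians, 32 moved further and 13 changed sign. The pseudocount and the limit to genes above 0 at both ends moved none of them beyond that. A narrower symbol rule removed 0 genes, could change nothing and is not counted. Centring on all genes gave 13 higher and 5 lower at the TSS (median log2 change 0.51) and 1 higher and 13 lower at the TES (median -0.19). Centring on the length group gave 13 higher and 6 lower at the TSS (median 0.41) and 2 higher and 10 lower at the TES (median -0.071). Class medians changed sign under centring on all genes for import receptors at both ends (-0.069 at the TSS, -0.52 at the TES), the scaffold at the TES (-0.41) and FG nucleoporins at the TES (-0.15). Under centring on length they did so for import receptors (-0.12 at both ends), and at the TES for FG nucleoporins (-0.14), the Ran cycle (-0.020) and messenger RNA export (-0.071). Centring on all genes subtracts 1.17 at the TSS and 0.85 at the TES, and the TES medians of the length groups lie between -0.09 and 1.04. A 2-fold threshold left 8 higher and 3 lower at the TES. Without the lowest 25% of ratios 23 genes were left at the TSS, of which 20 were higher and 0 lower. Without shared values, when 11 genes can be compared at the TSS and 16 at the TES, 10 were higher at the TSS and 1 lower at the TES, and the median log2 TES/TSS gradient was 1.59 in Carm1 KO and 2.11 in control cells. The median of import receptors at the TSS was then -0.51 and that of export receptors at the TES 0.51, which fewer genes by construction can move. No paired analysis was possible because each condition has 1 library and no test was run. Depth is unknown, and how many reads the low TSS ratios rest on was not worked out from the ratios.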
